A study of Rattus norvegicus with 35 samples.

Results

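The distal end of rat chromosome 1 carries a run of olfactory receptor (OR) genes, and 72 of the 41012 probes on the array read 71 of them. These probes were taken as those with a gene name starting with Olr, or a description naming an olfactory receptor, whose coordinate on chromosome 1 was at or above 190000000 in rat build rn3. They were 72 of 1136 OR probes in all. Another 200 OR probes lay lower on chromosome 1 and 864 lay on other chromosomes or had no position. No measured level entered this choice.

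ORs are G protein-coupled receptors that sit on the cilia of sensory neurons of the nose (OSNs), where an odorant that binds them starts a cyclic AMP signal that opens an ion channel. Each mature OSN transcribes 1 OR gene from 1 allele and keeps all others silent, so the RNA of an OR in the whole epithelium reflects both how many neurons chose it and how much each makes. In bulk RNA, fewer neurons and less RNA per neuron cannot be told apart. OR genes have a coding region without introns and arose by repeated local duplication, which leaves neighbours in a cluster alike in sequence.

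RNA of the olfactory epithelium of 27 Brown Norway rats was measured on 35 single-colour arrays. Newborn rats, 3 to 5 days old and of unrecorded sex, came from 4 mothers as litters L1, with 4 pups, and L2, L3 and L4, with 5 pups each, and only 1 side of the nose was taken from each of the 19 pups. Adult rats were 4 males of 9 weeks and old rats 4 males of 22 months, and both sides of each gave an array of their own, averaged here so that the rat is the replicate. Pups of a litter share a mother, no agent was given and no gene was altered.

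All 8 measured markers of mature OSNs, among them Omp, Gnal and Adcy3, were above background on all arrays of every age. Arrays had 24484 to 28361 probes above background in newborn, 25273 to 28020 in adult and 25275 to 27426 in old rats, and the number of arrays limits the precision. Adult arrays were scanned apart from all others, on 2 days of their own, so that age and scan day cannot be told apart in any comparison with adult rats. L1 and old rats shared 1 scan day but no slide, and L2 to L4 had 2 later days. Muscle genes were higher in pups, where the summed level of 6 skeletal muscle genes was 3.97 to 8.93, while adult rats had −0.13 to 0.94 and old rats −0.61 to 0.11 (log2 over the array median), and their part in the results was not tested.

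By position the 72 probes fell into 3 sections, divided wherever neighbours lay at least 1 Mb apart. The first, at chr1:200115886-201008017, held 22 probes over 892 kb, for genes that RefSeq (assembly GRCr8, matched by accession) now names in the Or6, Or12j and Or13a groups, with 14 probes for Or13a genes and 5 for Or12j genes. The second, at chr1:214830054-217228893, held 49 probes over 2399 kb, for Or10v, Or4d, Or4z, Or5a, Or5an, Or5bb, Or5b, Or10w, Or10q, Or1s, Or9i and Or9q genes, 21 of the probes reading Or5b genes. The third was the probe for Olr385 alone, at chr1:258329636-258329695, which matched no RefSeq entry. In all, 43 of the 72 probes lay on the plus strand.

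Each probe is 60 bases long, and likeness was measured as the best match of a probe among all other OR probes of the array. It had a median of 45 identical bases in the first section and 34 in the second. The closest pair, Olr349 and Olr358, shared 50. The 3 pairs below were picked because they are alike in sequence and were detected on different numbers of arrays. Capitals mark the bases that differ from the partner.
Olr300: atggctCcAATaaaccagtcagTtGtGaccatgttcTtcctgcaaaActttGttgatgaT
Olr303: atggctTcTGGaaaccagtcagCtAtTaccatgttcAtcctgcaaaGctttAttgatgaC
Olr311: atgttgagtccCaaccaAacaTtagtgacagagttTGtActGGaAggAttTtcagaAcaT
Olr315: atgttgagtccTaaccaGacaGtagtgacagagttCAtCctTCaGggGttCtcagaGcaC
Olr349: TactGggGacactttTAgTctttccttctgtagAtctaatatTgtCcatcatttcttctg
Olr358: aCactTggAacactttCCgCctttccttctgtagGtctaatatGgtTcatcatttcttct

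Olr300 and Olr303, both Or12j genes, shared 49 of 60 bases, and Olr311 and Olr315, both Or13a genes, shared 47 of 60. Olr349 and Olr358, both Or5b genes, shared 50 of the 59 bases over which they align. Olr300 was above background on 18 of 19 newborn arrays and on all 8 adult and all 8 old arrays, while Olr303 reached background on 0, 3 and 1. Olr315 was above background on all 35 arrays, and Olr311 on 1 newborn, 6 adult and 7 old arrays. Olr358 stood above background on 1, 7 and 7 arrays and Olr349 on 1, 0 and 0. In each pair the 2 probes differed by at least 6 arrays at 1 age or more, and such a difference was the ground for picking them. The probes of Olr374 and Olr375, with 46 identical bases, were close in detection. They were above background on 17 and 18 newborn, 8 and 7 adult and 8 and 8 old arrays.

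The probes that carry the changes described further on are printed here with their places, so that a reader can find the part of each gene that was read. Olr337 (chr1:215491727-215491786, plus strand) and Olr323 (chr1:215099278-215099337, minus) had the largest differences between newborn and older rats among the tested probes. Olr318 (chr1:214830054-214830113, minus) was below background in every pup. Olr336 (chr1:215444562-215444621, plus) ran the other way, and Olr375 (chr1:217014923-217014982, plus) differed most between adult and old rats among the tested probes.
Olr337: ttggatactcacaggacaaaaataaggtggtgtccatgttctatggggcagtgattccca
Olr323: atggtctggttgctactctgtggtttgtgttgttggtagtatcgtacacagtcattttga
Olr318: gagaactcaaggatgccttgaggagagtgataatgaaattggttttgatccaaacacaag
Olr336: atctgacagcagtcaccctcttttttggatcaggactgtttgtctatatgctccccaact
Olr375: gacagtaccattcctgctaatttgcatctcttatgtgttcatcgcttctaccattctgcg

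More of these ORs were detected in adult and old rats than in any litter. A probe was counted as expressed when it was above background on at least 3 arrays of a litter or on at least 6 of the 8 arrays of adult or old rats, as not expressed when it was above background on none, and otherwise as weakly expressed. Of the 72 probes, the litters L1 to L4 expressed 32, 28, 34 and 30, adult rats 43 and old rats 44. Between 29 and 36 probes were not expressed in a litter, against 13 in adult and 13 in old rats. Over all probes on the array the order was not the same, with 62.9% to 66.7% expressed in a litter, 63.6% in adult and 62.6% in old rats. For the distal chromosome 1 probes these shares were 38.9% to 47.2%, 59.7% and 61.1%. Elsewhere in the OR family they were 42.01% to 51.9%, 60.5% and 63.0% off chromosome 1, and 33% to 44.5%, 47% and 52.5% for the other probes of chromosome 1.

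**Figure D1:**
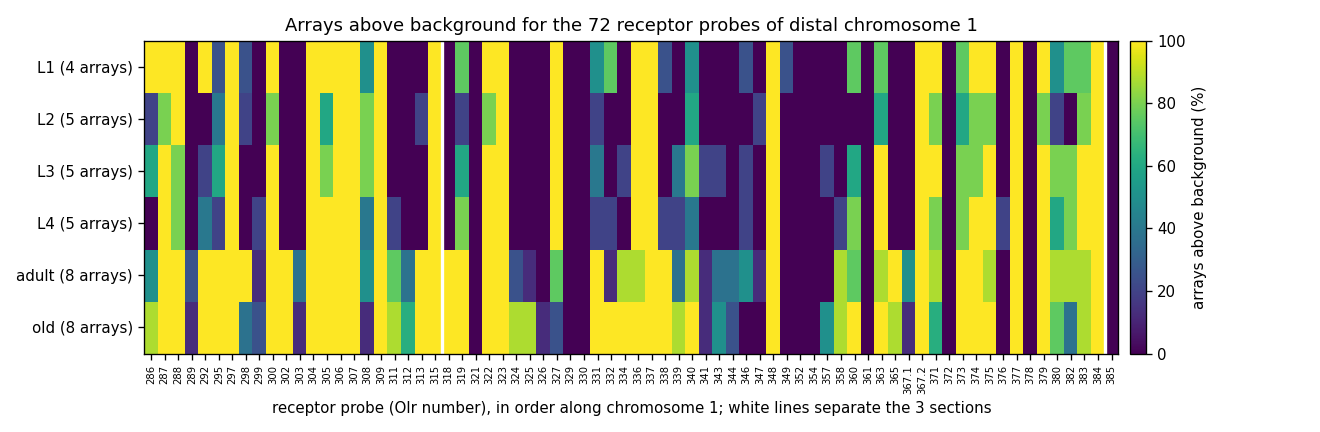
Share of arrays (colour, %) on which each of the 72 OR probes was above background in the 4 litters, adult and old rats (rows), with probes in order along chromosome 1 (columns) and white lines between the 3 sections. Columns that are dark in the litters and bright in adult and old rats, such as Olr302, Olr318 and Olr365, belong to the 9 probes expressed in adult and old rats and in no litter.

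Counted rat by rat, adult and old rats stood above every pup. The lowest, median and highest of the 19 pups had 15, 30 and 39 of the 72 probes above background. The adult rats had 47.5, 46, 49 and 41.5, each the mean of both sides, and the old rats 45, 48.5, 46.5 and 49. No pup reached the lowest adult rat, whereas for all probes on the array the pups (24484 to 28361) spanned the adult rats (26577.5 to 27769.5) and the old rats (26350.5 to 26817.5). The litter means averaged 31.1 ± 3.21 (SD, n = 4 litters), against 46.0 ± 3.24 in adult (n = 4) and 47.2 ± 1.85 in old rats (n = 4). As a share of all OR probes above background in the same rat, the distal chromosome 1 probes made up 4.26% to 6.19% in pups, 6.29% to 6.71% in adult and 6.30% to 6.59% in old rats, again with no pup reaching an adult or old rat.

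**Figure D2:**
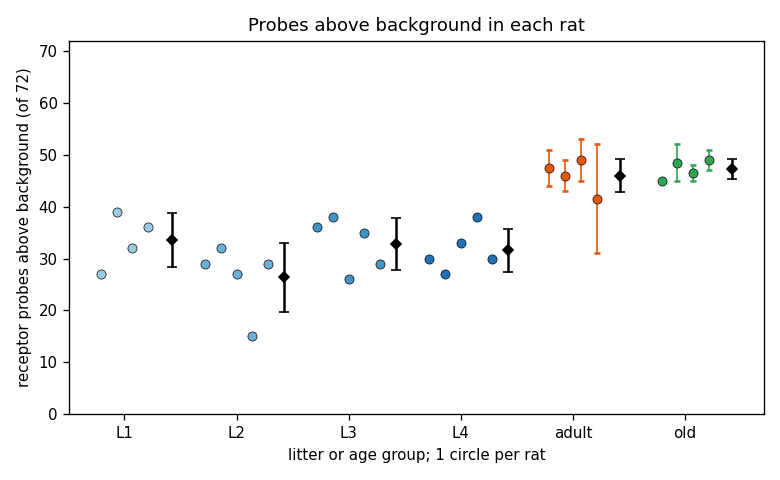
Number of the 72 OR probes above background (vertical axis) in each rat, by litter or age group (horizontal axis). Circles are rats, coloured bars join both sides of a rat, and black diamonds with bars are group means with their SD. The highest pup is at 39 and the lowest adult rat at 41.5.

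The pup with 15 probes above background, rat 24 of L2, had 352 OR probes above background in all, the fewest of any rat. Among adults, the A array of rat 16 had 52 of the 72 above background and its B array 31. This rat had 23 probes above background on 1 side only, against 8 to 10 in the other adult and 3 to 12 in the old rats. Sides of the same rat differed at 12.5 probes on average in adult rats and arrays of different adult rats at 10.6. In old rats the averages were 8 and 8.58, so the 2 sides of a rat were not clearly more alike than arrays of different rats, in either group.

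The 72 probes sorted into a few patterns. Some 24 (33.3%) were expressed in all 4 litters, adult and old rats. The share was 27% of the other OR probes of chromosome 1, 36.3% of those elsewhere and 57.7% of all probes on the array. Another 9 were expressed in adult and in old rats and in no litter: Olr302, Olr311 and Olr313 (Or13a genes), Olr318 (Or10v9b), Olr331 and Olr334 (Or5an genes), and Olr338, Olr358 and Olr365 (Or5b genes). That pattern held for 11 of the 200 other OR probes of chromosome 1, 71 of the 864 elsewhere and 218 of all 41012 probes. Another 4 were expressed in no litter and in only 1 of the older groups, Olr298 in adult rats and Olr324, Olr325 and Olr339 in old rats. Expression in adult or old rats and in no litter was thus seen for 13 of the 72 and for 791 of all 41012 probes. In the opposite direction the only member was Olr308 (Or13a18c), expressed in L2 and L3 and in neither adult nor old rats, with 12 newborn, 4 adult and 1 old arrays above background. Expression in at least 1 litter and in neither older group was seen for 31 of all 1136 OR probes and 1784 of all 41012 probes. Olr327 and Olr371 were expressed in every litter but in adult rats alone among the older groups.

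At the ends of the range, 12 probes were above background on all 35 arrays and 9 on none. Of all 41012 probes, these numbers were 21519 and 6859. The 12 were Olr297 (Or12j3), 5 Or13a genes (Olr304, Olr306, Olr307, Olr309 and Olr315), Olr323 (Or4d10c), Olr337 (Or5a3), Olr348 and the second probe of Olr367 (Or5b genes), Olr377 (Or9q2) and Olr384 (Or9i1b). The 9 were Olr321, Olr329, Olr330, Olr352, Olr354, Olr361, Olr372, Olr378 and Olr385, none of them in the first section. In that section every probe was above background on at least 1 adult and 1 old array.

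Detection thus differed along the chromosome. In the first section adult rats expressed 16 of 22 probes, old rats 16 and a litter 10 to 13. In the second these numbers were 27, 28 and 17 to 21 of 49. The share of readings above background in the first section was 53.1% for pups, 81.2% for adult rats and 79.0% for old rats. In the second these shares were 39.3%, 57.4% and 61.0%. Within the second section the 21 Or5b probes were above background in 26.6% of newborn, 50.6% of adult and 51.2% of old readings, and the 2 Or9q probes in 97.4%, 100% and 100%.

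Base composition varied with detection as well. Across the 72 probes, the G+C percentage of a probe and the number of arrays on which it was above background had a Pearson r of 0.57 and a Spearman rho of 0.63. The median G+C content was 42.5% in the first section and 38.3% in the second. The likeness of a probe to its best match showed no such relation (r = 0.08, rho = 0.06). Probes share arrays and neighbours share ancestry, so these are descriptions of 72 probes, and the part of base composition in the difference between sections was not tested.

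Levels were compared with limma on the log2 of the signal over the array median, where 0 is the median probe of an array. Only the 24 probes expressed in all 6 groups entered the main comparisons, and p-values were adjusted over the 23668 transcripts that met this condition. The 3 age comparisons share rats, so their counts are given side by side and are not independent. A second fit over all 41012 probes covers the other 48, many of which lay near the lower limit of −6.64 that was set for a level.

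Against adult rats, newborn rats had lower levels of most of the 24 ORs. With an adjusted p under 0.01 (limma, Benjamini-Hochberg), 16 of 24 were lower in newborn rats, 1 was higher and 7 were not called. The background was 26.2% of all transcripts tested for lower and 39.6% for higher levels. Their median log2 difference was −1.34, while that of all transcripts tested was 0.16. The groups did not overlap for 14 of the 24, all lower in newborn rats, against a background of 14.7% for lower and 24.0% for higher levels. In 4 of the 24 the difference was 5-fold or more, against 0.744% of all transcripts. In the fit over all probes, 38 of the 72 were lower and 2 higher, with backgrounds of 19.6% and 26.7%.

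Against old rats the difference was wider. Here 22 of 24 ORs were lower in newborn rats, Olr336 was higher and Olr383 was not called, while 31.7% of all transcripts were lower and 27.7% higher. The median log2 difference was −1.99, beside −0.04 for all transcripts tested. For 20 of the 24 all old rats lay above all pups and for 1 below, against a background of 17.6% and 14.2%, and 8 differed by 5-fold or more in the lower direction, against 1.06%. Across all probes 50 of the 72 were lower and 2 higher, against 22.8% and 20.0%. Within the scan day that L1 and old rats shared, 20 of the 24 were lower in L1 and none was higher, with a median of −1.94, against 29.6% of all transcripts lower. These 20 values were obtained without a change of scan day, but L1 and old rats lay on separate slides. Age and slide cannot be told apart in that comparison.

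Adult and old rats were closer to each other. Of the 24 ORs, 9 were lower in adult than in old rats, none was higher and 15 were not called, while 31.6% of all transcripts were lower and 15.3% higher. At an unadjusted p under 0.05 in limma, in either direction, there were 14 of the 24, against 14840 of all 23668 transcripts. The share of ORs called lower, 37.5%, was therefore near that of all transcripts. The median log2 difference was −0.66 for the 24 ORs and −0.19 for all transcripts. In 15 of 24 no adult rat reached the lowest old rat, and in none did all adult rats lie above, against a background of 38.9% and 18.7%. Age and scan day cannot be told apart here, and the lower count was 6 with scan day as a random block, 15 when only adult and old rats were fitted and 14 with each array as a sample. Among all 72 probes, 11 were lower and 2 higher, against 20.3% and 11.4%.

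Other ORs moved in the same direction, and the distal block was set beside them without a test. Of all transcripts tested, 26.2% were lower and 39.6% higher in newborn than in adult rats. These shares were 31.7% and 27.7% against old rats, and 31.6% and 15.3% for adult against old rats. Of the 54 tested probes lower on chromosome 1, 20 were lower in newborn than in adult rats and 6 higher, with a median of −0.44. Of 314 on other chromosomes 182 were lower and 20 higher, with a median of −0.91. Against old rats 47 of 54 and 255 of 314 were lower, with medians of −1.43 and −1.66. Between adult and old rats 31 of 54 and 125 of 314 were lower in adult rats, with medians of −1.03 and −0.70.

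**Figure D3:**
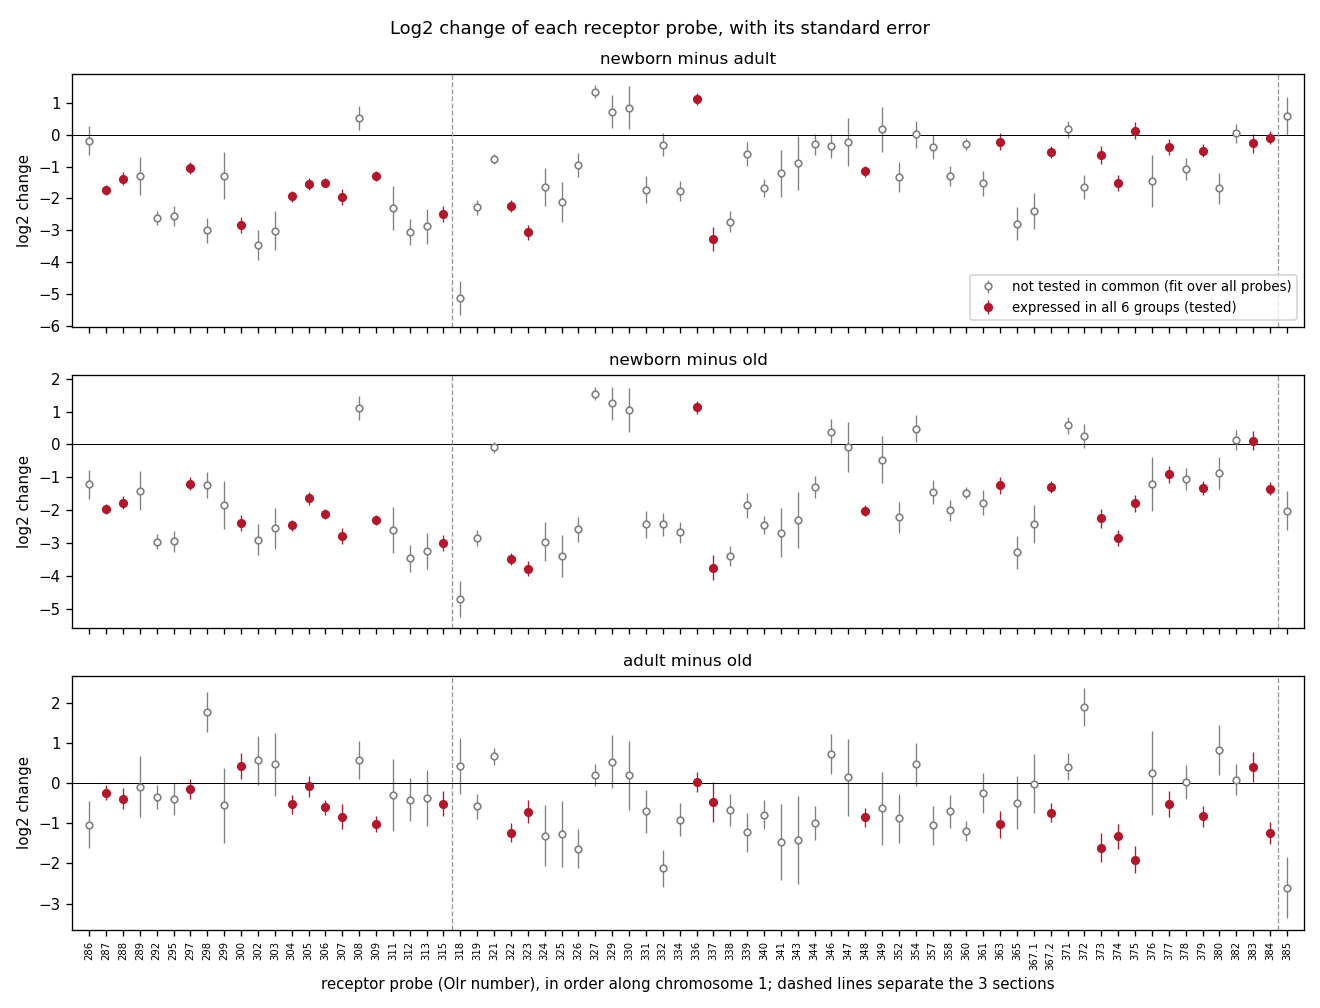
Log2 difference of each of the 72 OR probes with its standard error (vertical axes) in the 3 age comparisons (panels), with probes in order along chromosome 1 (horizontal axis) and dashed lines between sections. Filled circles are the 24 probes tested in all groups and open circles the fit over all probes. In the upper panel all 10 filled circles of the first section lie below 0, and the last 4 of the second section, Olr377, Olr379, Olr383 and Olr384, lie between −0.50 and −0.09.

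The 10 tested ORs of the first section were lower in newborn rats against both adult and old rats, all 10 of them, against 26.2% and 31.7% of all transcripts tested. Their median log2 differences were −1.64 and −2.21. In the second section 6 of 14 were lower than in adult rats and 12 of 14 lower than in old rats, with medians of −0.52 and −1.57. Between adult and old rats 2 of 10 and 7 of 14 were lower in adult rats, against 31.6% of all transcripts, with medians of −0.45 and −0.84. The same order held in the fit over all probes, where 18 of 22 and 20 of 49 were lower in newborn than in adult rats, against 19.6% of all probes. The difference between the sections was not tested.

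Neighbouring genes were compared over 68 pairs. The rank correlation of their log2 differences was 0.25 for newborn against adult, 0.37 for newborn against old and 0.14 for adult against old rats, and it was 0.05 for the number of adult and old arrays above background. Pairs overlap and probes share arrays, and these values are a description.

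In the Or13a subfamily, the largest group of the first section, 6 of 14 probes were tested. All 6 were lower in newborn rats than in adult and old rats, against 26.2% and 31.7% of all transcripts tested. Olr315 (Or13a26) stood at −1.38, −0.34 and 0.55 in the lowest, median and highest pup, at 1.93, 2.08, 2.26 and 1.65 in the adult rats and at 2.49, 2.42, 2.17 and 2.89 in the old rats. All pups lay below all older rats, while adult and old rats overlapped. The log2 difference from adult rats was −2.48 ± 0.25 (SE, adjusted p = 2.51e-09, limma), a 5.59-fold difference. Olr311 (Or13a26c), whose probe is alike in sequence, was expressed in no litter and ranged from the lower limit of −6.64 to −0.21 in pups. It stood at −1.65, −1.70, −1.36 and −2.45 in adult and at −1.35, −1.82, −1.57 and −1.24 in old rats. The highest pup, rat 31 of L4, lay above every adult and old rat, and all other pups lay below them. Over all probes its adjusted p was 0.0066 against adult rats, and between 0.0102 and 0.027 when any 1 adult rat was left out. Against old rats its adjusted p was 0.00283, and 0.011 without rat 17 and 0.0119 without rat 20.

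Olr307 (Or13a18b) had levels of 0.10, 1.31 and 1.89 in the lowest, median and highest pup, 3.15, 3.33, 3.40 and 2.87 in adult and 3.99, 4.001, 3.82 and 4.26 in old rats. The 3 ages did not overlap. It was 3.89-fold lower in newborn than in adult rats (log2 −1.96 ± 0.24 SE, adjusted p = 8.2e-08) and 6.93-fold lower than in old rats. Between adult and old rats its difference of −0.83 had an adjusted p of 0.0232 and was not called. Olr309 (Or13a27e) also ordered the ages without overlap, with pups from 1.78 to 2.94 around a median of 2.32, adult rats at 3.67, 3.76, 3.85 and 3.49 and old rats at 4.69, 4.72, 4.46 and 4.96. It was lower in adult than in old rats by −1.02 ± 0.20 (adjusted p = 0.000154). Olr306 (Or13a23), the other gene of this section called between adult and old rats (−0.60 ± 0.19, adjusted p = 0.0085), lost the call without adult rat 13 (adjusted p = 0.0203), 14 (0.0113) or 16 (0.0328), old rat 17 (0.0179), 18 (0.0201) or 20 (0.0282), or pup 26 (0.0101) or 29 (0.0102), and with scan day as a random block (0.0353). The call was also lost with slide as a random block (0.0102) and with scaling to the 75th percentile (0.015).

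Of the Or13a genes not expressed in any litter, Olr302 (Or13a27b) was above background on no newborn array and on all adult and old arrays. Its levels were −5.87, −3.58 and −2.17 in the lowest, median and highest pup, −0.06, −0.01, −0.27 and −0.73 in adult and −0.75, −1.02, −0.93 and −0.63 in old rats. Newborn rats lay below all others, and adult and old rats overlapped. Where no array of a group gave a signal well above background, only a working bound was used for the probe in that group. The bound was set, array by array, at the lowest signal of any probe well above background or at the probe's own signal where that was higher. A probe can stay undetected above the lowest detected signal, so folds given as at least a value hold under this bound only. By this measure Olr302 was at least 4.46-fold lower in newborn than in adult rats and at least 3.01-fold lower than in old rats (adjusted p = 1.3e-06 and 1.85e-05 over all probes). Olr313 (Or13a26b) was above background on 1 newborn array, in L2, and on all adult and old arrays. It ran from −6.64 to −1.74 in pups, and from −0.91 to −0.67 in adult and −0.54 to −0.27 in old rats, with no overlap between pups and others.

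The Or12j genes, 5 in a stretch of 214 kb, were all lower in newborn than in adult rats over all probes. The share of all probes on the array was 19.6%. Olr300 (Or12j4) stood at −2.09, −1.07 and −0.24 in the lowest, median and highest pup, at 1.56, 1.69, 1.90 and 1.87 in adult and at 1.30, 1.13, 0.99 and 1.89 in old rats. It was 7.07-fold lower in newborn than in adult rats (log2 −2.82 ± 0.25 SE, adjusted p = 3.82e-10) and 5.26-fold lower than in old rats. Pups overlapped with neither, and adult and old rats overlapped. Olr298 (Or12j2b), singled out after its values were seen, was highest in adult rats. It stood at −5.37, −3.11 and −1.62 in pups, at −0.18, −0.37, 0.12 and −0.24 in adult and at −2.17, −1.58, −2.26 and −1.73 in old rats, and was above background on 2, 8 and 3 arrays. Adult rats lay above all others. The old rat at −1.58 lay just above the highest pup, and the other old rats lay within the range of the pups. Its log2 difference of 1.77 ± 0.51 between adult and old rats had an adjusted p of 0.00703 over all probes, and of 0.0102 to 0.0216 when any 1 of the 8 adult and old rats was left out.

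Of the Or6 genes at the start of the block, Olr287 (Or6f2) had levels of −1.60, −0.998 and −0.52 in the lowest, median and highest pup, 0.89, 0.56, 0.91 and 0.51 in adult and 0.60, 0.90, 0.89 and 1.43 in old rats. Pups lay below all others and adult and old rats overlapped. The difference from adult rats was −1.73 ± 0.15 (adjusted p = 1.97e-10) and that from old rats −1.97. Olr286 (Or6ae1), the first gene of the block, was called in no comparison, with pups from −4.15 to −0.06 that spanned the adult rats (−3.24 to −1.52) and the old rats (−1.84 to −0.90).

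At the start of the second section, Olr318 (Or10v9b) was, like Olr302, detected in older rats alone. Its probe was above background on none of the 19 newborn arrays and on all 16 adult and old arrays. Levels were −6.64, −4.04 and −2.26 in the lowest, median and highest pup, 1.20, 1.08, 1.45 and 0.40 in adult and 0.39, 0.30, 0.69 and 1.04 in old rats. Every pup lay below every other rat, and adult and old rats overlapped. By the working bound it was at least 11.0-fold lower in newborn than in adult rats and at least 8.16-fold lower than in old rats (adjusted p = 2.19e-08 and 1.19e-07 over all probes). Its neighbour Olr319 (Or10v1) was expressed in L1, L3 and L4, and was lower in newborn rats by −2.28 ± 0.24 against adult and −2.85 ± 0.24 against old rats (adjusted p = 2.64e-08 and 1.03e-09).

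The Or4d genes Olr322 and Olr323 were lowest in newborn and highest in old rats. Olr323 (Or4d10c) stood at −0.54, 0.34 and 1.02 in the lowest, median and highest pup, at 3.15, 3.38, 3.41 and 3.47 in adult and at 4.04, 4.06, 3.88 and 4.27 in old rats. The 3 ages did not overlap. It was 8.38-fold lower in newborn than in adult rats (log2 −3.07 ± 0.22 SE, adjusted p = 1e-11) and 13.7-fold lower than in old rats (adjusted p = 3.86e-13). Its difference of −0.71 in adult from old rats was not called (adjusted p = 0.0379). Olr322 (Or4d10) stood at −1.75, −0.95 and −0.08 in pups, at 1.29, 1.18, 1.42 and 1.17 in adult and at 2.58, 2.36, 2.25 and 2.80 in old rats. Again no ages overlapped, and here all 3 differences were called, at −2.25 against adult rats, −3.48 ± 0.19 against old rats (adjusted p = 4.97e-14) and −1.23 ± 0.24 for adult against old rats (adjusted p = 0.000105). Of the other Or4 genes, Olr324 and Olr325 were above background on no newborn array, on 2 and 1 adult arrays and on 7 old arrays each. By the working bound they were at least 1.995-fold and 1.80-fold lower in newborn than in old rats.

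Olr337 (Or5a3) differed most between newborn and adult rats among the 24 tested ORs. Its levels were −1.26, 1.26 and 2.33 in the lowest, median and highest pup, 4.10, 4.14, 4.42 and 4.24 in adult and 4.74, 4.49, 4.58 and 4.98 in old rats. The ages did not overlap, and the pups, with litter means of 0.95 ± 0.59 (SD, n = 4), ranged more widely than the older rats. It was 9.69-fold lower in newborn than in adult rats (log2 −3.28 ± 0.38 SE, adjusted p = 3.78e-08) and 13.4-fold lower than in old rats (adjusted p = 5.92e-09). Within the shared scan day, L1 lay −4.47 below old rats (adjusted p = 0.000114). Olr332 (Or5a21), of the same subfamily, set old rats apart. It was above background on all 8 old arrays but on 1 adult and 4 newborn arrays, 3 of these in L1. Adult rats stood at −2.48, −2.80, −2.69 and −2.46, within the range of pups (−5.20 to −1.78), and old rats above both at −0.27, −0.36, −0.69 and −0.61. Adult and old rats differed by −2.13 ± 0.46 (adjusted p = 0.000599 over all probes).

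A pair of genes of the second section, Olr336 and Olr327, were higher in newborn rats. Olr336 (Or5an6) stood at −0.89, −0.08 and 0.47 in the lowest, median and highest pup, at −1.63, −0.88, −1.12 and −1.30 in adult and at −1.61, −1.31, −0.92 and −1.17 in old rats. Only 1 pup lay below the highest adult rat and none below the highest old rat. Olr336 was 2.17-fold higher in newborn than in adult rats (log2 1.12 ± 0.20 SE, adjusted p = 1.74e-05) and 2.19-fold higher than in old rats (at an adjusted p of 1.78e-05), though within the scan day of L1 and old rats the difference of 0.93 had an adjusted p of 0.0143. Olr327 (Or5bb12), singled out after its values were seen, was above background on 19 newborn, 6 adult and 2 old arrays. It stood at −1.52, −0.44 and 0.13 in pups, at −1.70, −1.77, −1.77 and −2.02 in adult and at −2.03, −1.46, −1.95 and −2.63 in old rats. All pups lay above all adult rats, and 1 pup lay below the highest old rat. Over all probes it was higher in newborn rats by 1.34 ± 0.21 and 1.55 ± 0.21 (adjusted p = 7.62e-06 and 1.39e-06), and by 1.40 within the shared scan day (adjusted p = 0.0317).

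The 5 Or5an genes, Olr336 among them, lay within 157 kb and went both ways. Olr334 (Or5an1b) stood at −4.93, −3.16 and −2.36 in the lowest, median and highest pup, at −1.40, −1.91, −1.23 and −1.54 in adult and at −0.78, −0.11, −1.07 and −0.49 in old rats, with no overlap of the ages. It was lower in newborn than in adult and old rats (adjusted p = 3.77e-05 and 1.54e-07 over all probes). Olr331 (Or5an10), above background on 6 newborn and all older arrays, was lower in newborn rats by −1.73 ± 0.42 and −2.44 ± 0.42 (adjusted p = 0.00116 and 3.39e-05 over all probes), but within the scan day of L1 and old rats the difference of −3.19 had an adjusted p of 0.0178. Olr329 and Olr330 were above background on no array.

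Of the 21 probes of the Or5b genes, the largest subfamily here, 3 were expressed in all groups and tested. Over all probes 7 of the 21 were lower in newborn than in adult rats and none higher, against 19.6% and 26.7% of all probes on the array, and 15 were lower than in old rats and none higher, against 22.8% and 20.0%. Olr348 (Or5b102) stood at −1.26, −0.31 and 0.40 in the lowest, median and highest pup, at 0.93, 0.92, 0.87 and 0.69 in adult and at 1.32, 1.90, 1.69 and 1.92 in old rats. No ages overlapped. It was lower in newborn than in adult rats by −1.16 ± 0.18 (adjusted p = 2.66e-06), and lower in adult rats than in old ones by −0.86 ± 0.23 (adjusted p = 0.00244). That second call was lost with scan day as a random block (adjusted p = 0.0274), by the methods' t-test (0.0134) and, narrowly, without old rat 20 (0.01002). Olr365 (Or5b116) was above background on no newborn array, on 8 adult and on 7 old arrays. By the working bound it was at least 2.62-fold lower in newborn than in adult and at least 3.69-fold lower than in old rats. Olr338 (Or5b95) was above background on 2 newborn arrays and on all older arrays, with pups from −4.62 to −1.70, adult rats from −0.23 to 0.01 and old rats from 0.23 to 1.01. These 3 ranges did not overlap. Olr358 (Or5b104b) had adult rats (−2.21 to −1.33) that overlapped with both pups (−4.51 to −1.65) and old rats (−1.63 to −0.64), while no pup reached an old rat.

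Olr367 (Or5b123), the only gene read by 2 probes, gave a different picture with each. The first lies at chr1:216776005-216776064 and the second at chr1:216776278-216776337, both on the plus strand, and their sequences are shown because they read separate stretches of 1 gene.
Olr367 probe 1: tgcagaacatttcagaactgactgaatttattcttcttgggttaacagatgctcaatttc
Olr367 probe 2: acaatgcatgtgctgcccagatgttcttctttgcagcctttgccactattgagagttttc

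The second probe was above background on all arrays and the first on no newborn, 4 adult and 1 old arrays. By the second, Olr367 stood at −1.37, −0.67 and 0.18 in the lowest, median and highest pup, at 0.35, −0.32, 0.04 and −0.58 in adult and at 0.87, 0.26, 0.32 and 1.01 in old rats. Pups and adult rats overlapped, as did adult and old rats, and pups lay below all old rats. The difference from old rats was −1.29 ± 0.18 (adjusted p = 1.13e-06). That from adult rats, −0.54 ± 0.18, had an adjusted p of 0.00986, at the edge of the threshold, and of up to 0.0861 when 1 rat was left out, the last without adult rat 13. That between adult and old rats, −0.74 ± 0.23 with an adjusted p of 0.00888, reached up to 0.0438 when 1 rat was left out, without adult rat 16, and was 0.0727 with scan day as a random block. By the first probe the differences from adult and old rats were −2.40 ± 0.57 and −2.42 ± 0.57, from readings that mostly lay below background.

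Towards the end of the second section, several genes separated old rats from both pups and adults. Olr375 (Or10q12) stood at −2.31, −1.53 and −0.71 in the lowest, median and highest pup, at −1.29, −1.70, −1.09 and −2.70 in adult and at −0.25, 0.99, 0.36 and −0.24 in old rats. The adult rat at −2.70 lay below every pup and the other adult rats lay among the pups, while old rats lay above both. It was 3.76-fold lower in adult than in old rats (log2 −1.91 ± 0.34 SE, adjusted p = 4.19e-05), while newborn and adult rats differed by 0.12 (adjusted p = 0.696). Its neighbour Olr374 (Or10q1) differed at every step, with pups from −2.60 to −0.84, adult rats at −0.09, 0.61, −0.33 and −0.51 and old rats at 1.19, 1.18, 1.26 and 1.36. The differences were −1.51 ± 0.24 against adult, −2.84 ± 0.24 against old and −1.33 ± 0.31 for adult against old rats (adjusted p = 5.87e-06, 3.29e-10 and 0.000886). By the methods' t-test the adult-to-old differences of both genes missed the threshold, with adjusted p-values of 0.017 for Olr375 and 0.0248 for Olr374. Olr373 (Or10w3) stood at −2.74, −1.34 and −0.64 in pups, at −0.54, −0.85, −0.58 and −1.15 in adult and at 0.84, 0.82, 0.54 and 1.10 in old rats. Pups and adult rats overlapped and old rats lay above both. It was lower in adult than in old rats by −1.61 ± 0.36 (adjusted p = 0.000601), and the difference between newborn and adult rats, −0.65, was not called (adjusted p = 0.0438).

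The 7 Or9i and Or9q probes close the section, and none of the 4 tested was called between newborn and adult rats. Olr384 (Or9i1b) stood at −1.93, −1.06 and 0.54 in the lowest, median and highest pup, at −0.62, −0.80, −0.92 and −1.12 in adult and at 0.44, 0.70, 0.14 and 0.27 in old rats. It was lower in adult than in old rats by −1.25 ± 0.27 (adjusted p = 0.000407), without overlap. Olr377 (Or9q2) overlapped among all 3 ages. Its difference from old rats, −0.91 ± 0.25 (adjusted p = 0.0025), missed the threshold without old rat 18 (0.0132), 19 (0.0106) or 20 (0.0145), and within the shared scan day (0.0265). The same held with rat (0.0245), slide (0.0265) or scan day (0.0466) as a random block. Olr383 (Or9i2) was called in no comparison, with pups from −2.65 to −0.35, adult rats from −1.35 to −0.12 and old rats from −1.80 to −0.67. Olr382 (Or9i14), above background on 11 newborn, 7 adult and 3 old arrays, differed by at most 0.13 between ages in the fit over all probes. Its newborn mean averages unlike litters, with means of −2.03, −3.02, −1.43 and −1.69 in L1 to L4 and no L2 array above background.

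**Figure D4:**
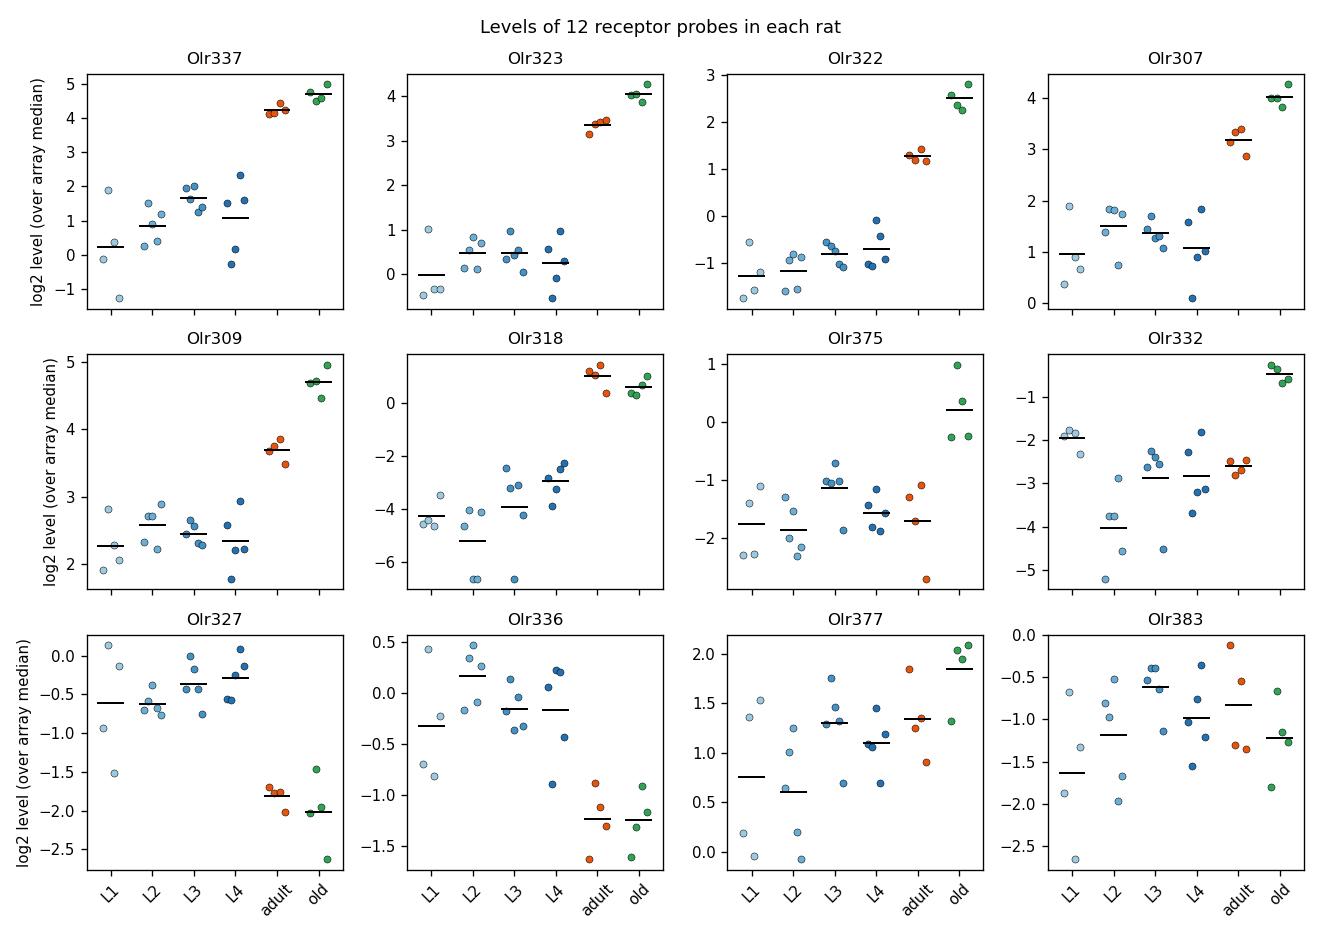
Log2 level over the array median (vertical axes, scaled per panel) of 12 OR probes in each rat of the 4 litters, adult and old rats (horizontal axis). Circles are rats and lines group means. Olr337, Olr323, Olr322, Olr307 and Olr309 order the 3 ages without overlap, Olr375 and Olr332 set old rats apart, and Olr327 and Olr336 are higher in pups.

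Olr385, far from the rest at the end of the chromosome, was above background on no array. Its readings of −6.64 to −2.69 in pups, −6.32 to −4.65 in adult and −3.92 to −2.15 in old rats lay below background, so that its adjusted p of 0.00737 (0.0102 with scan day as a random block) between adult and old rats over all probes compares signals that were not detected.

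Among the 4 litters the ORs of the block differed little by this test. Of the 24, 1 was called, Olr348, while 36.2% of all transcripts tested were called. Olr348 had litter means of −0.14, −0.83, 0.01 and −0.26 in L1 to L4 (adjusted p = 0.00759 of limma's F test), lowest in L2. The count was 0 without pup 12, 21, 24, 25, 26, 27, 29 or 30, or with slide as a random block, and 2 without pup 10, so the call rests on single pups. At an unadjusted p under 0.05 in that F test there were 5 of the 24, against 14160 of all 23668 transcripts. Over all probes 5 of 72 were called, against 21.5%, namely Olr292, Olr332, Olr340, Olr382 and Olr385. Olr292 (Or12j2) was above background on all 4 arrays of L1 and on 0, 1 and 2 arrays of L2, L3 and L4, with means of −1.58, −2.90, −2.66 and −2.61. Litter and scan day cannot be told apart for L1.

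Genes that act with ORs were set beside them. Of 29 genes for odour transduction and for the choice or transport of receptors, 22 were tested, with a median of −1.59 between newborn and adult rats. Of these, 14 were lower in newborn than in adult rats, 2 higher and 6 not called, against 26.2% lower and 39.6% higher of all transcripts tested. The 2 higher genes were Camk2b, a calmodulin-dependent kinase, and Atf5, a transcription factor. Against old rats the counts were also 14 and 2, against 31.7% and 27.7% of all transcripts. Between adult and old rats 6 were lower and 1 higher in adult rats, against 31.6% and 15.3%. Gnal, the G protein subunit that ORs activate, differed by −2.03 between newborn and adult rats (adjusted p = 2.24e-11). Adcy3, the adenylyl cyclase of the cascade, differed by −2.67 (adjusted p = 1.68e-14), and the channel subunits Cnga2, Cnga4 and Cngb1 by −1.90, −2.24 and −3.25. Rtp1, which helps ORs to the cell surface, differed by −1.85. Lhx2 and Ldb1, which bind the enhancers of OR genes, differed by −0.08 and 0.04 (adjusted p = 0.663 and 0.644).

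Among markers of the maturity of the epithelium, those of mature OSNs moved with the ORs. Most of the tested immature OSN and basal genes went the other way. Of all transcripts tested, 26.2% were lower and 39.6% higher in newborn than in adult rats. Against old rats these shares were 31.7% and 27.7%. All 8 tested mature OSN genes, which the transduction list also holds, were lower in newborn rats against both older groups, with medians of −2.24 and −2.90. Their summed level was 7.64 to 8.79 in pups, 10.2 to 10.7 in adult and 10.8 to 11.3 in old rats, without overlap. Of 7 immature OSN genes, 5 were higher and 1 lower in newborn than in adult rats, with the growth-cone gene Gap43 at 0.78, and their summed level was 10.2 to 11.2, 9.91 to 10.3 and 9.51 to 9.87. Of 8 genes of basal and dividing cells, 6 were higher and none lower, with the proliferation marker Mki67 at 2.49, and their summed level was 8.25 to 10.9, 7.95 to 8.23 and 8.95 to 9.24. Of 5 sustentacular genes, which mark the supporting cells, 3 were lower and 1 higher in newborn than in adult rats, and all 5 were lower than in old rats. Of 4 genes of ciliated respiratory cells none was called, and of 5 macrophage genes 2 were higher, near the share of all transcripts. All 3 red cell genes were higher, and the muscle gene Myh3, the only muscle gene expressed in all groups, was 7.13 higher in newborn rats. The part of cell composition in the differences of the ORs was not tested.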

How the data were processed

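The authors hybridised Cy3-labelled RNA to Agilent whole rat genome arrays and deposited the scanner output, in which the intensity of each spot has its local background subtracted by Feature Extraction (release 9.5.1.1 for adult arrays, 9.5.3.1 for all others, per the file headers) and is not normalized between arrays. The deposited files also hold mean spot intensity, median background intensity and flags. A matrix of ratio values that the authors deposited, scaled to each array's median and to a constant per probe, served as an alternative only.

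Control spots and outlier flags were left out. Intensities were divided by the array median, floored at 0.01 and taken to log2, and both sides of each adult and old rat were averaged. A spot was above background when flagged as positive and significant and as well above background, with no flag for uneven or saturated pixels. None of the 72 probes was saturated. Levels were fitted with limma 3.58.1 in R 4.3.3 (lmFit, eBayes) over 6 groups, with newborn rats as the mean of 4 litters. P-values were two-sided and adjusted by Benjamini-Hochberg over 23668 transcripts expressed in all groups, or over all 41012 probes where so stated, with a threshold of 0.01. Scripts were tested on simulated data.

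Named ORs were the 8 largest called changes in each direction without overlap, those expressed in adult and old rats on at most 1 newborn array, those named by the study, the block's first and last probes and those called among litters, 29 in all. A few others are said to be chosen after their values were seen, or stand as neighbours, examples of a pattern or probes alike in sequence. Members and gene lists were chosen with earlier results of these data known. The lists were odour transduction and receptor partners, mature and immature OSNs, basal and dividing cells, sustentacular, respiratory ciliated, skeletal muscle, red cell and macrophage genes. The brightest probe stood for a gene, and Ano2, Gng13, Emx2, Ebf4, Kdm1a, Sox2 and Hba-a1 had no probe by name and are not analysed here. Coordinates (rn3) and probe sequences are those of the deposited files. Accessions paired 71 of 72 probes with RefSeq symbols. Pups are separate animals of 4 litters and were fitted as independent within a litter. Standard errors and p-values of newborn comparisons thus rest on spread within groups and leave out variation between the 4 litters. The alternatives tried were other scalings, background corrections, floors, filters and definitions of expressed, every array as a sample, rat, slide or scan day as a random block, the methods' t-test, fewer groups and leaving out each rat.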

Additional observations from a re-analysis of the deposited data

Results flagged for a closer look

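Among 234 groups of 4 or 5 rats tested, over litters, adult and old rats, 9 held a rat whose level stood apart from the rest by Dixon's test, all of them litters. Chance gives such a rat in about 1 in 20 groups. Rat 30 of L3 accounted for 4 of these. It was lowest for Olr332 at −4.51 (others −2.63 to −2.26), for Olr365 at −6.64 (−3.13 to −2.33) and for Olr374 at −2.60 (−1.54 to −1.11), and highest for Olr348 at 0.39 (−0.13 to −0.06). Rat 24 of L2, the pup with the fewest ORs above background, was lowest for Olr302 at −5.29 (−3.00 to −2.18) and for Olr315 at −1.14 (−0.18 to −0.04). Rat 32 of L4 was lowest for Olr287 at −1.60 (−1.01 to −0.88) and for Olr298 at −5.37 (−3.28 to −2.65). Rat 10 of L1 was highest for Olr323 at 1.02 (−0.48 to −0.33). Olr302, Olr365, Olr298 and Olr332 were below background in all pups of the litter concerned, so that low readings there have no order. Olr348 was also the tested OR whose level differed among litters (adjusted p = 0.00759, limma).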

How the results depend on the processing

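No difference changed direction past the threshold under any alternative, and with the 24 ORs tested the counts lower in newborn rats were 15 to 17 against adult and 20 to 22 against old rats, with adult rat 16 by its A array alone (chosen after seeing the data) among the settings. Filters set the number tested. With no filter, 38 were lower and 2 higher against adult, 50 and 2 against old, 11 and 2 between adult and old rats, and 5 differed among litters. With only the 12 probes above background on all 35 arrays, these were 10 and 0, 12 and 0, and 5 lower in adult than in old rats. Normexp with quantile normalization gave medians of −0.44, −0.65 and −0.29 and 0 calls among litters. Slide as a random block also left 0 calls among litters. Against old rats the count higher was 0 with L1 alone. In adult against old rats, 14 were lower with every array as a sample, 15 with only the groups compared, and 6 with scan day as a random block. Counting positive and significant signals alone, 56, 48, 54 and 55 ORs were expressed in L1 to L4, 45 in all groups, 3 in adult and old rats and no litter, and 1 in all litters only. Requiring every array of a group, 15 were expressed in L2, 22 in L3, 12 in all groups and 1 in all litters only. Leaving out 1 rat gave 15 to 16 and 21 to 22 lower in newborn rats, 6 to 11 lower in adult than old rats, 0 to 2 among litters (Olr348 rests on single pups) and 0 to 1 in all litters only, the 1 without adult rat 14 or 15. Scaling moved the median of all transcripts between newborn and adult rats from 0.16 to −0.01 (quantile) while that of the ORs relative to it went from −1.49 to −1.41. No paired analysis was possible because no rat number recurs between groups. Dim probes limit the rest: 48 of 72 were not tested in common, and readings near −6.64 are set by the floor.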
